A study of Caenorhabditis elegans with 2 samples.

Results

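The nuclear tRNA genes for leucine and serine, which code for the tRNAs with a long variable arm, were 78 of the 612 nuclear tRNA genes in the RefSeq annotation of the Caenorhabditis elegans genome (WBcel235, the same sequence as build ce11). They were chosen by their annotated product, tRNA-Leu or tRNA-Ser, and the rule used no signal or peak. Leucine had 39 genes, 20 with the anticodon AAG, 7 with CAA, 6 with CAG, 3 with TAA and 3 with TAG. Serine also had 39 genes, 15 with AGA, 6 with CGA, 9 with GCT and 9 with TGA. The 4 mitochondrial genes for these amino acids were left out, and the other 534 nuclear tRNA genes served as the comparison.

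The study mapped where RPC-1, the largest RNA polymerase III subunit, sits on the genome by ChIP-seq (sequencing of DNA precipitated with an antibody) in whole worms of strain N2, the wild-type laboratory strain, at the young adult stage. There was 1 group, with 2 biological replicates and no second genotype, treatment or stage. The signal at a gene therefore averages all tissues and whichever sexes were present, and the share of males is not given in the sources used here. The authors' lists on ce11 held 1320 peaks in the thresholded list, which kept peaks reproducible between the replicates, and 30000 regions in each replicate's own relaxed list. The signal of a peak is the authors' value, on a scale of its own in each list, so signals were compared within a list only. The read depth is unknown. With 1 group, no test between conditions was possible, and genes that share a sequence or a peak are not replicates.

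RNA polymerase III transcribes tRNA genes from a promoter inside the gene, which consists of an A box near the start and a B box near the end. The factor TFIIIC binds these boxes and brings TFIIIB to the DNA just upstream of the gene, TFIIIB recruits the polymerase, and transcription ends at a run of T just past the gene. In leucine and serine tRNAs, and in selenocysteine tRNA, a long variable arm lies between the anticodon arm and the T arm, which puts the B box farther from the A box than in tRNA genes that have neither a long arm nor an intron. Seryl-tRNA synthetase reads that arm rather than the anticodon. The genes for tRNA-Leu with the anticodon CAA also carry an intron next to the anticodon, which is spliced from the transcript.

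The following gene sequences, read 5′ to 3′ on the coding strand from the RefSeq genome WBcel235, show the promoter of selected members. For each anticodon the gene is the one with the strongest peak among genes whose printed sequence has all its copies on chromosomes II to X. The peaks of C53C7.t1 and F42A10.t2 are each shared with a neighbouring tRNA gene. The 3 genes F08F1.t3, VK10D6R.t1 and ZK1010.t1 are shown because they had no peak or the weakest one and differ in sequence from genes with the same anticodon. Capitals mark the matches to the A box (TNNCNNAG) and the B box (GTTCNANNC), and ZK1010.t1 has no B box match.
C04E7.t1, Leu-AAG, chrX:353255-353336, minus strand: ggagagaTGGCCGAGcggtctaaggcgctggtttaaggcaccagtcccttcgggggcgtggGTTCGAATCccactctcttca
F08F1.t3, Leu-AAG, chrX:8409296-8409377, minus strand: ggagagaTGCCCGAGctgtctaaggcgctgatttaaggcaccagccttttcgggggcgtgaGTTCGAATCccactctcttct
C04A11.t1, Leu-CAA, chrX:13665555-13665673, plus strand: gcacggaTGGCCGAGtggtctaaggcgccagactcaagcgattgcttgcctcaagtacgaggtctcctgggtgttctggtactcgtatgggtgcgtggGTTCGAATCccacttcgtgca
ZK678.t1, Leu-CAG, chrX:15742050-15742133, plus strand: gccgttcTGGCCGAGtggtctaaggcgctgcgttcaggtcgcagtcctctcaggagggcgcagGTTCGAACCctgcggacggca
VK10D6R.t1, Leu-CAG, chrV:11183666-11183765, minus strand: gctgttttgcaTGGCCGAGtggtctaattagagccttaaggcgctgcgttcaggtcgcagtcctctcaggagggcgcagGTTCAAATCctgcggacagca
C40H5.t1, Leu-TAA, chrX:11757831-11757914, minus strand: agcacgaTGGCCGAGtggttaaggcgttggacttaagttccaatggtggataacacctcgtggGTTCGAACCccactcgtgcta
W02H3.t1, Leu-TAG, chrX:11095673-11095754, plus strand: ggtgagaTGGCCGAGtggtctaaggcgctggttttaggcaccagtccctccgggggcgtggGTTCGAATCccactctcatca
C53C7.t1, Ser-AGA, chrX:13046578-13046659, plus strand: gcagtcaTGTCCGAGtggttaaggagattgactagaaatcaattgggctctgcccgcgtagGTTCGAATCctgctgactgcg
F42A10.t2, Ser-CGA, chrIII:6158965-6159050, plus strand: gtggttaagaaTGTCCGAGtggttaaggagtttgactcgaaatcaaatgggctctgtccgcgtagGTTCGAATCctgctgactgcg
C29F7.t2, Ser-GCT, chrX:13442643-13442724, plus strand: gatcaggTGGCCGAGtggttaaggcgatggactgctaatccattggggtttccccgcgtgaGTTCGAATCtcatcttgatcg
ZK1010.t1, Ser-GCT, chrIII:13009423-13009499, plus strand: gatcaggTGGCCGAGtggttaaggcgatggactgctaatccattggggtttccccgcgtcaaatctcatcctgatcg
ZC455.t1, Ser-TGA, chrV:12780386-12780467, minus strand: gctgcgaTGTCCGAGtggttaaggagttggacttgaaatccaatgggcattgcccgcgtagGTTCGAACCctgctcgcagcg

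The promoter layout was nearly uniform across the members. The A box pattern TNNCNNAG, searched on the coding strand in the first 25 bases, was found in 78 of 78 members and in 217 of the 534 other tRNA genes (40.6%), but it was chosen after the members' sequences were seen, so that difference was built into it. The B box pattern, searched on the coding strand and overlapping no A box, was found in 77 members and in 510 of the others (95.5%). The distance from A box to B box was 54 to 56 bases in all members that had both except the 7 Leu-CAA genes, with 91 to 94 bases, and VK10D6R.t1, with 68. Its median was 54 bases in the members and 45 in the 206 of the other genes that matched both patterns. The tRNA-Tyr genes, whose introns of 11 bases lie between the boxes, had 56 to 59 bases (18 genes). A second A box pattern, TNGCNNA, was found in 47 of 78 members (60.3%) and in 291 of the 534 others (54.5%). It was found in 38 of 39 Leu genes, in all but F08F1.t3, and among Ser genes in the 9 Ser-GCT genes. The Ser genes with the anticodons AGA, CGA and TGA have TGTCCGAG there instead. A run of at least 4 T began 3 to 9 bases past the gene in every member, and within 50 bases in 527 of the others.

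Nearly all members carried the polymerase. A thresholded peak overlapped 76 of the 78 genes by at least 1 bp (97.4%, exact Clopper-Pearson 95% interval 91.0 to 99.7%, counting error only), against 490 of the 534 other tRNA genes (91.8%, interval 89.1 to 93.9%) and 92.5% of all nuclear tRNA genes. All 39 Ser genes (interval 91.0 to 100%) and 37 of 39 Leu genes (94.9%, interval 82.7 to 99.4%) were occupied. The 76 occupied genes lay under 72 distinct peaks, since some neighbours share one. Taking the 1320 strongest regions of replicate 1's own list gave 69 members, beside 85.9% of all nuclear tRNA genes, and those of replicate 2's list gave 75, beside 92.2%. Within the 660 strongest thresholded peaks there were 64 members (82.1%), beside 83.0% of all nuclear tRNA genes, so the members' share among strong peaks was near the background.

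The signal covered a wide range within the members. Over the 76 occupied genes it ran from 35.8 to 1089, a 30.5-fold range, with a median of 335, and over the 490 occupied other tRNA genes from 38.1 to 1269 with a median of 369. The log2 ratio of the medians, members over other tRNA genes, was -0.14, and it was -0.055 in replicate 1's strongest regions and -0.088 in replicate 2's. Leu genes had a median of 365 (37 genes) and Ser genes one of 310 (39 genes), with overlapping ranges of 81.7 to 1089 and 35.8 to 896. For occupied genes with no other tRNA gene or tRNA pseudogene within 500 bp, the medians were 348 (32 Leu genes) and 238 (25 Ser genes). For peaks over a single tRNA gene they were 317 (34 Leu genes) and 236 (27 Ser genes). In the replicates' own lists, over all members with a region, the Leu median was 106 and the Ser median 93.6 for replicate 1, and 239 and 223 for replicate 2. The order turned in replicate 1's 1320 strongest regions, with medians of 110 at Leu genes (37 genes) and 112 at Ser genes (32 genes). It also turned in the 660 strongest thresholded peaks, with 370 (34 genes) and 398 (30 genes). Both cuts are on the signal itself and left out more Ser than Leu genes, so the turn cannot be told apart from the cut. The differences between the amino acids and between the members and other tRNA genes were small beside the spread among genes.

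By anticodon, the medians ran from 249 to 484. The 7 Leu-CAA genes, which carry the intron, had the highest median, 484 (range 273 to 1089). Ser-CGA followed with 401 (122 to 896, 6 genes), Leu-CAG with 365 (81.7 to 531, 5 genes), Leu-AAG with 331 (104 to 734, 19 genes), Ser-TGA with 310 (58.8 to 503, 9 genes), Leu-TAG with 299 (296 to 471, 3 genes), Ser-AGA with 287 (48.6 to 896, 15 genes), Leu-TAA with 277 (180 to 675, 3 genes) and Ser-GCT with 249 (35.8 to 695, 9 genes). Peaks shared with another tRNA gene weighed on this order. Over genes with a peak of their own the median was 236 for Ser-CGA (3 genes) and 176 for Ser-AGA (8 genes), the lowest, and it stayed at 484 for Leu-CAA. Neighbours in this order did not differ beyond their spread, and the range of every anticodon overlapped that of every other. The order was not the same in each replicate's own list. There, over all members with a region, Leu-CAA had the highest median, 151 in replicate 1 and 326 in replicate 2, and Ser-CGA the second highest, 138 and 264. The lowest was Ser-TGA in replicate 1 with 83.8 and Ser-GCT in replicate 2 with 158.

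**Figure D1:**
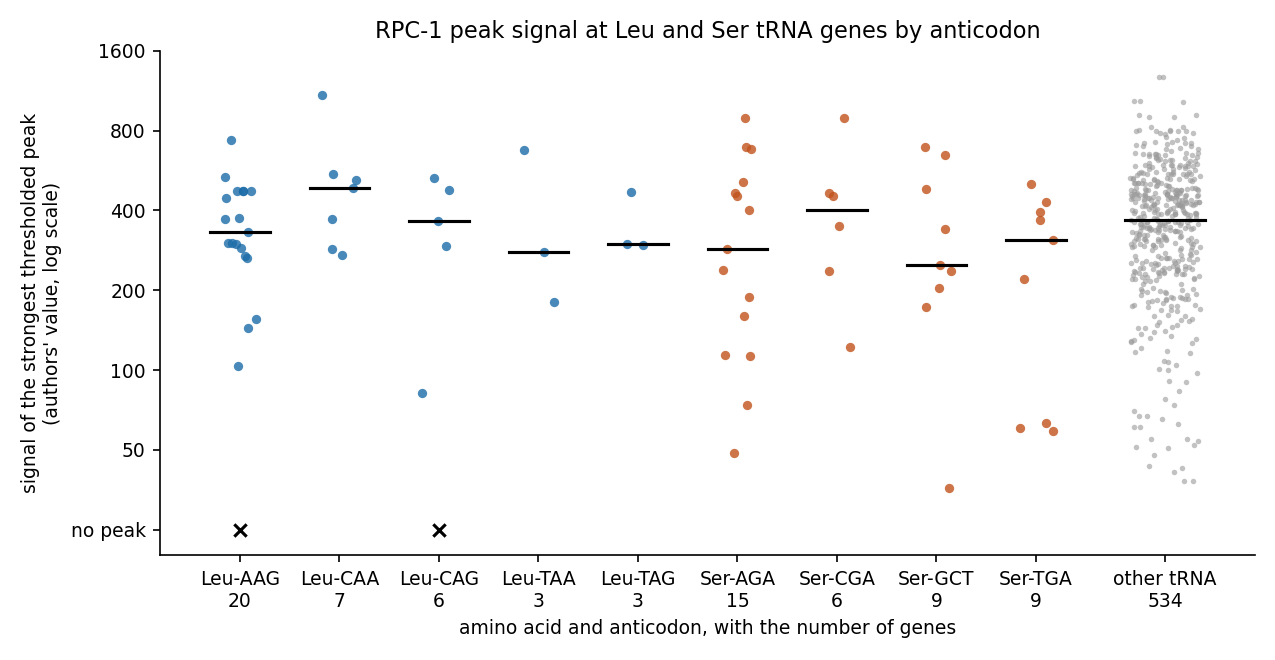
Signal of the strongest thresholded peak (authors' value, log scale) at each Leu gene (blue) and Ser gene (orange) by anticodon, and at the other tRNA genes (grey), with black lines for medians and crosses for genes with no peak. Leu-CAA has the highest median, 484, and the points of all anticodons overlap each other and the other tRNA genes, whose median is 369.

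The strongest member was C04A11.t1, a Leu-CAA gene between protein-coding genes on the X chromosome. Its signal was 1089, rank 6 of the 1320 thresholded peaks, with 348 (rank 6) in replicate 1 and 738 (rank 7) in replicate 2. The next peak, with 896, was shared by C53C7.t1 (Ser-AGA) and C53C7.t2 (Ser-CGA), which stand 131 bp apart on X and point away from each other, so its signal cannot be divided between them. It ranked 15 in the thresholded list and in both replicates' lists. C04E7.t1 (Leu-AAG) followed with 734 (rank 42 in the thresholded list, 42 in replicate 1, 44 in replicate 2), E03E2.t1 (Ser-GCT, in an intron of the monoamine transporter gene cat-1) with 695, and C48C5.t2 (Ser-AGA) with a signal that also rounds to 695. All of them lie on X.

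The 5 weakest occupied members were Ser genes. ZK1010.t1 (Ser-GCT, in an intron of snf-7) had a signal of 35.8, rank 1312 of 1320. Y73F8A.t4 (Ser-AGA) had 48.6, F28F8.t1 (Ser-TGA) 58.8, Y51H4A.t6 (Ser-TGA) 60.4 and Y51H4A.t2 (Ser-TGA) 63.1. ZK1010.t1 ranked 2532 in replicate 1 (signal 12.7) and 1379 in replicate 2 (20.6), so it was among the 1320 strongest regions of neither replicate. It is also the member that lacks a B box match: it shares its first 59 bases and last 6 with C29F7.t2, which had a signal of 249, and is 5 bases shorter, and the shorter stretch falls where C29F7.t2 has its B box. No match says only that these letters are not in the gene.

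The extremes of each anticodon were split by chromosome. The strongest gene was on X for 8 of 9 anticodons, the exception being Ser-TGA, whose strongest gene was ZC455.t1 on chromosome V (503). For Ser-AGA and Ser-CGA it was the same shared peak, and over genes with a peak of their own the count was 7 of 9. X held 34 of the 76 occupied members. The weakest occupied gene was autosomal for all 9. For Leu-AAG the extremes were C04E7.t1 (734) and C17D12.t3 in an intron of spe-9 (104). For Leu-CAA they were C04A11.t1 (1089) and ZK822.t1 (273), and for Leu-CAG ZK678.t1 (531) and T19C4.t1 in an intron of gpa-1 (81.7). C40H5.t1 (675) and T22C8.t1 in an intron of cutl-12 (180) were the extremes of Leu-TAA, and W02H3.t1 (471) and C16D9.t2 in an intron of rol-3 (296) those of Leu-TAG. Among Ser genes they were C53C7.t1 (896) and Y73F8A.t4 (48.6) for AGA, C53C7.t2 (896) and K03F8.t1 in an intron of acr-5 (122) for CGA, E03E2.t1 (695) and ZK1010.t1 (35.8) for GCT, and ZC455.t1 (503) and F28F8.t1 (58.8) for TGA. The ratio of the strongest to the weakest within an anticodon was between 1.59 for Leu-TAG and 19.4 for Ser-GCT.

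Members on X had stronger peaks than autosomal members, and the other tRNA genes showed the same order. The median was 461 over 34 occupied members on X and 282 over 42 on the autosomes, with ranges of 114 to 1089 and 35.8 to 547. In the other tRNA genes it was 446 on X (226 genes) and 315 on the autosomes (264 genes). Replicate 1 gave the members 149 on X and 87.5 on the autosomes, and replicate 2 gave 298 and 188. For isolated genes, those more than 500 bp from any other tRNA gene or tRNA pseudogene, the medians were 438 on X and 287 on the autosomes, and for genes with a peak of their own 438 (22 genes) and 273 (39 genes). Every member on X and all but 5 of the autosomal ones had over 65% unique 32-mers, that is, stretches of 32 bases, taken from the gene with flanks of 200 bp, with a single match in the genome. Those 5 (Y73F8A.t3, Y73F8A.t4, Y51H4A.t2, Y51H4A.t6 and K03F8.t1), all of them Ser genes, had signals of 48.6 to 122. Without them the medians were 461 on X and 295 on the autosomes. How reads from repeated sequence were placed is not given in the sources used here, and its part in these signals was not tested.

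The location inside a protein-coding gene went with a smaller difference. In an intron of such a gene lay 33 members, all occupied, with a median of 298, and outside introns 45, of which 43 were occupied, with a median of 376. The other tRNA genes had medians of 345 in introns and 393 outside. X held 12 of the 33 intronic members and 23 of the 45 others, so location and chromosome were not independent. The 19 members with another tRNA gene within 500 bp had a median of 466 and the 57 occupied isolated members one of 302, but neighbouring genes can share a peak.

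Genes of identical sequence differed widely in signal. The 78 members had 36 distinct sequences, and 13 families of at least 2 identical occupied genes held 55 members. The ratio of the strongest to the weakest copy had a median of 3.72 over these families (1.04 to 18.5), against a median of 3.86 over the 43 such families of other tRNA genes. The 11 identical Ser-AGA genes ran from 48.6 at Y73F8A.t4 to 896 at C53C7.t1, which shares its peak. Among the 6 of them with no other tRNA gene within 500 bp, the highest was C48C5.t2 with 695, a ratio of 14.3. The 9 copies of the Leu-AAG gene printed as C04E7.t1, all on X, ran from 290 (F08F1.t2) to 734, and 7 copies of another Leu-AAG sequence, all autosomal, from 104 (C17D12.t3) to 475 (F49C5.t3). The peak of F49C5.t3 is shared with a neighbouring tRNA-Lys gene, and the highest isolated copy was C27A12.t1 with 376. The 7 identical Ser-GCT genes ran from 173 (C37A5.t1) to 695 (E03E2.t1). The copies of a family have the same bases in both promoter boxes.

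In 10 families with occupied copies both on X and on the autosomes, the median of the copies on X was higher in 9. The exception was a Ser-TGA pair, B0395.t1 on X with 221 and ZC455.t1 on chromosome V with 503. The other tRNA genes had 32 such families, with the median on X higher in 29. Over genes with a peak of their own, X was higher in 6 of 7 families of members and in 27 of 30 families of other tRNA genes. A pair of Leu-TAA genes, printed above as C40H5.t1, gave 675 on X and 277 at F10C1.t2 on chromosome II. A pair of Ser-AGA genes gave 683 at R03E1.t1 on X, which shares its peak with a neighbouring tRNA gene, and 73.9 at K11H3.t1 on chromosome III. Reads that lie wholly inside identical copies cannot be assigned to 1 of them by sequence, and the part of such reads in these signals was not tested.

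**Figure D2:**
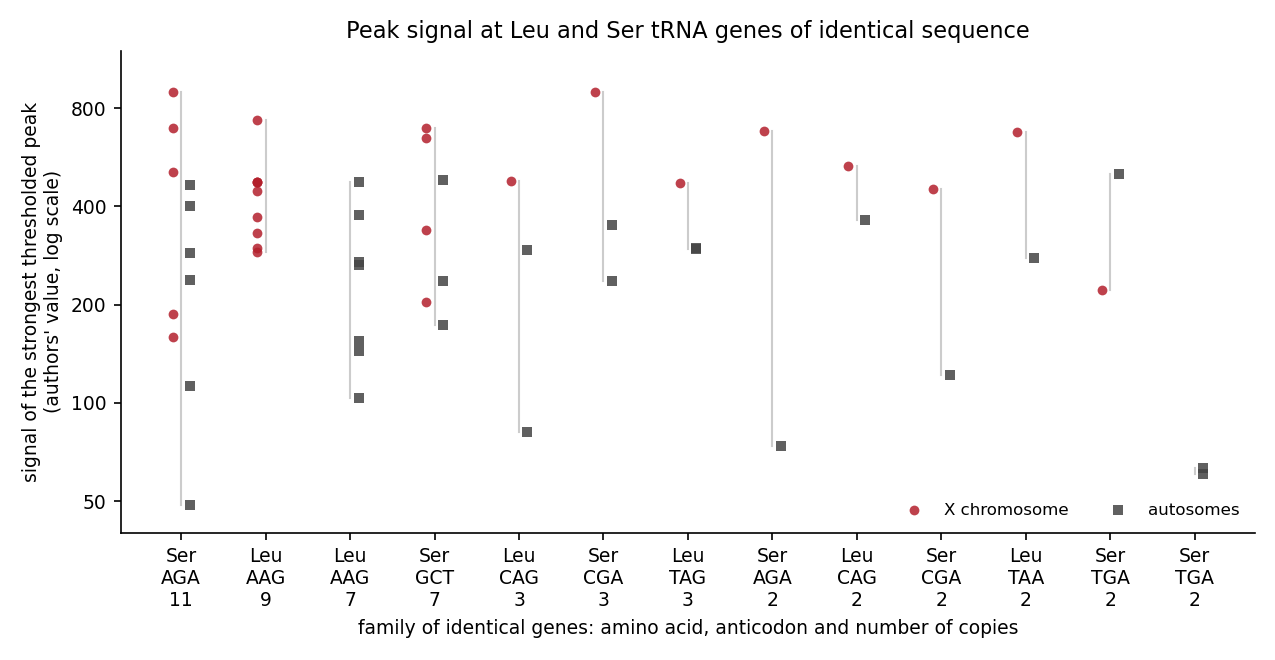
Signal of the strongest thresholded peak (authors' value, log scale) at members of 13 families of identical genes, with copies on X as red circles and autosomal copies as dark squares, and grey lines from the weakest to the strongest copy. In 9 of the 10 families with copies on both, the median of the X copies is higher, and the widest family, Ser-AGA with 11 copies, spans 48.6 to 896.

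The members without a thresholded peak were 2 Leu genes. F08F1.t3 (Leu-AAG), on X between protein-coding genes, overlapped no region of the pooled list or of replicate 1's list and 1 weak region in replicate 2's (signal 3.82, rank 16893 of 30000). The nearest thresholded peak was 4460 bp away. VK10D6R.t1 (Leu-CAG), on chromosome V between protein-coding genes, overlapped 1 weak region in replicate 1's list (5.73, rank 23135), and the nearest thresholded peak, that of T19C4.t1, was 8563 bp away. Both have 1 copy in the genome, with 100% and 76.8% unique 32-mers inside the gene, whereas 56 of the 78 members have no unique 32-mer inside the gene. Of the isolated members, 14 had over 50% unique 32-mers inside the gene, and 12 of these 14 had a thresholded peak.

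Both unoccupied genes differ from their occupied relatives in sequence. F08F1.t3 differs from C04E7.t1 at 8 of 82 positions, counted from base 1 of the gene with the base of C04E7.t1 first: G10C, G17T, G31A, T45C, C47T, C48T, G61A and A82T. Of these, G10C lies in the A box and leaves the pattern TNNCNNAG but not TNGCNNA, and the B box match is the same in both genes. The 15 Ser-AGA, 6 Ser-CGA and 9 Ser-TGA genes also have no match to TNGCNNA, and all of them had a thresholded peak. VK10D6R.t1 is 16 bases longer than ZK678.t1, with the A box match 4 bases farther from the start and the distance from A box to B box 12 bases longer. It still holds matches to both boxes, but its B box reads GTTCAAATC where that of ZK678.t1 reads GTTCGAACC.

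The summit of a peak, its highest point, was read for the 57 occupied members with no other tRNA gene or tRNA pseudogene within 500 bp, counted from base 1 at the start of the gene. Its median was base 28 (range -30 to 117), and in 42 of the 57 genes it lay inside the gene (73.7%, exact 95% interval 60.3 to 84.5%). It lay in bases 1 to 30, around the A box, in 30 genes, near or past the B box inside the gene in 8, between these in 4, past the gene in 13 and before it in 2. In the 348 isolated occupied other tRNA genes, the median was base 20, and 297 summits (85.3%, interval 81.2 to 88.9%) lay inside the gene. The members' median was thus 8 bases farther from the start, in genes with a median length of 82 against 72 bases. The difference was 6 bases in replicate 2's strongest regions and 0.5 in replicate 1's, where 77.4% of the members' summits and 77.1% of the others' lay inside the gene, so replicate 1 alone did not show it.

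Summit positions were less certain than signals. In the replicates' own lists, the summits of the same gene lay a median of 24 bases apart over 57 isolated members, within 10 bases in 20 and over 30 bases apart in 25, and fell in the same one of these zones in 25. The median summit was base 34 in replicate 1 and base 28 in replicate 2. From the first base of the B box, the members' median distance was -41.5 bases in the thresholded list (56 members with the box). It was -31 in replicate 1 and -35.5 in replicate 2, that is, upstream of the B box in each. In the other tRNA genes it was -33, -18.5 and -31 bases. Measured from the gene end, the thresholded medians were -61 bases in the members and -53 in the others. In the thresholded list the members' summits were thus farther from the start, from the B box and from the gene end. Without the genes that carry an intron, its medians were -33 bases from the B box in the members (49 genes) and -32 in the others (319 genes). From the gene end they were -52.5 and -52 bases, and from the start base 29.5 and base 20. The distances from the B box were then -24.5 and -18.5 bases in replicate 1, and -33 and -30 in replicate 2.

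**Figure D3:**
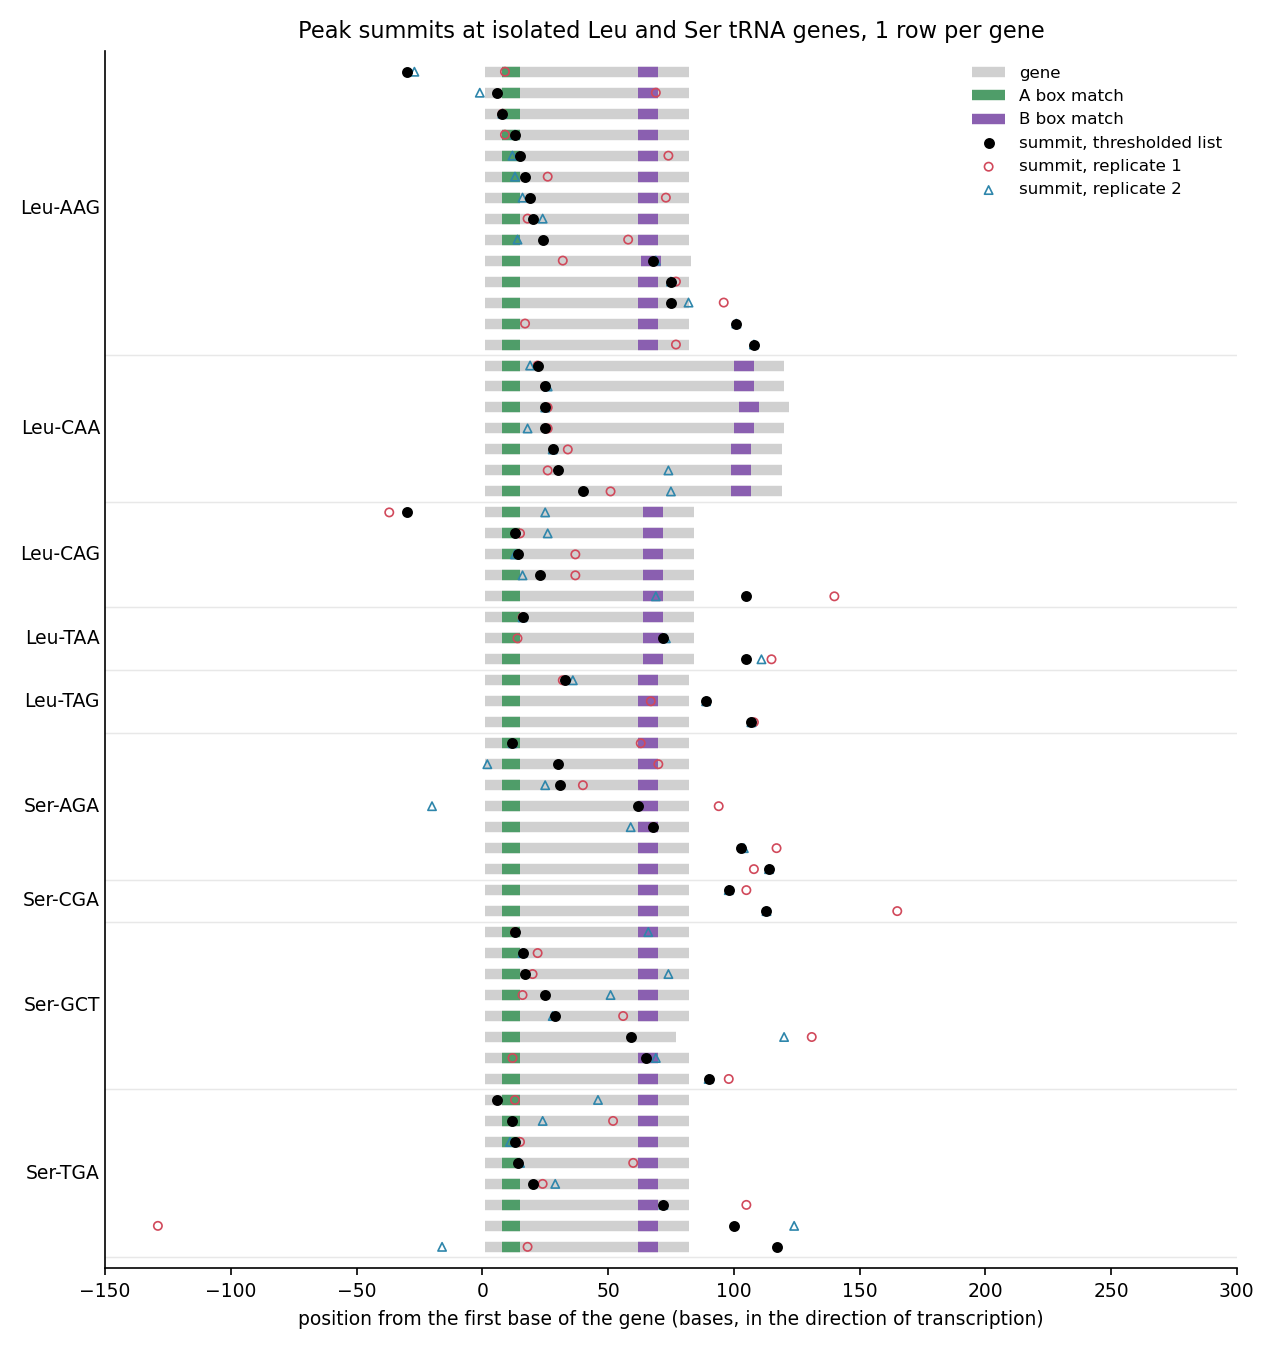
Position of the peak summit in bases from the start of the gene, 1 row for each of the 57 isolated occupied members, grouped by anticodon, with the gene as a grey bar, the A box match in green and the B box match in purple. Black points are the thresholded list, red circles replicate 1 and blue triangles replicate 2. The 7 Leu-CAA summits of the thresholded list lie at bases 22 to 40, near the A box, and 13 summits lie past the end of the gene.

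The Leu-CAA genes had the longest distance between the boxes, and their summits lay inside the gene in all 3 lists. Their introns of 35 to 38 bases put the B box at base 99 to 102. All 7 summits lay at bases 22 to 40 in the thresholded list, with a median of base 25 and a median distance of -75 bases from the B box. Replicate 1 gave bases 22 to 51 and replicate 2 bases 18 to 75, with a median of base 26 in each. The introns also differ between these genes, and 51.1 to 79.5% of the 32-mers inside each occurred once in the genome, against a median of 0 over all 78 members. The tRNA-Tyr genes, which also carry an intron, had 13 of 13 isolated summits inside the gene with a median of base 17 in the thresholded list, 11 of 13 with a median of base 30 in replicate 1 and 12 of 13 with a median of base 16 in replicate 2.

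Summits outside the gene were mostly downstream. The 13 members concerned were C48C5.t4, F08F1.t1, C53C7.t3, T22C8.t1, C04A2.t1 and C16D9.t2 among Leu genes, and Y73F8A.t3, Y73F8A.t4, K03F8.t1, T02G6.t1, C37A5.t1, Y51H4A.t2 and Y51H4A.t6 among Ser genes. Their summits lay 7 to 35 bases past the last base of the gene, with a median of 21. Of the other tRNA genes 40 of 348 (11.5%) had such a summit, against these 13 of 57 (22.8%). In replicate 1 the shares were 18.9% of the members and 16.4% of the others, and in replicate 2 they were 19.6% and 12.6%. For 12 of the 13 no 32-mer inside the gene was unique, the exception being T22C8.t1 with 100%, and their median signal was 180, against 367 for members with a summit inside. Among the isolated members with over 50% unique 32-mers inside the gene, 11 of 12 summits lay inside it, against 31 of 45 for the rest, but 7 of those 12 were Leu-CAA genes, and without them it was 4 of 5. The other tRNA genes had the opposite order, 29 of 36 (80.6%) over 50% unique against 268 of 312 (85.9%) for the rest. The part of sequence repeats in the summit position was not tested. The 2 summits before the gene were those of C17D12.t3 and T19C4.t1, both at base -30.

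The replicates ranked the members alike. Over the 73 members with a region in the thresholded list and in both replicates' lists, Spearman's rho between the replicates' signals was 0.907 and Pearson's r of the log2 signals 0.911, as a description across genes that share sequences and a control library. The ranks differed most for F28F8.t1 (Ser-TGA), rank 9224 in replicate 1 (signal 8.49) and 871 in replicate 2 (51.0), a log2 ratio of 3.40. C05C9.t2 (Leu-AAG, rank 567 and 168, log2 ratio 1.75) and C48C5.t2 (Ser-AGA, rank 113 and 36, log2 ratio 1.65) followed. C05C9.t2 lies 358 bp from the identical C05C9.t1, and in replicate 2 and the thresholded list a single peak covered both, while replicate 1 had a region at each.

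**Figure D4:**
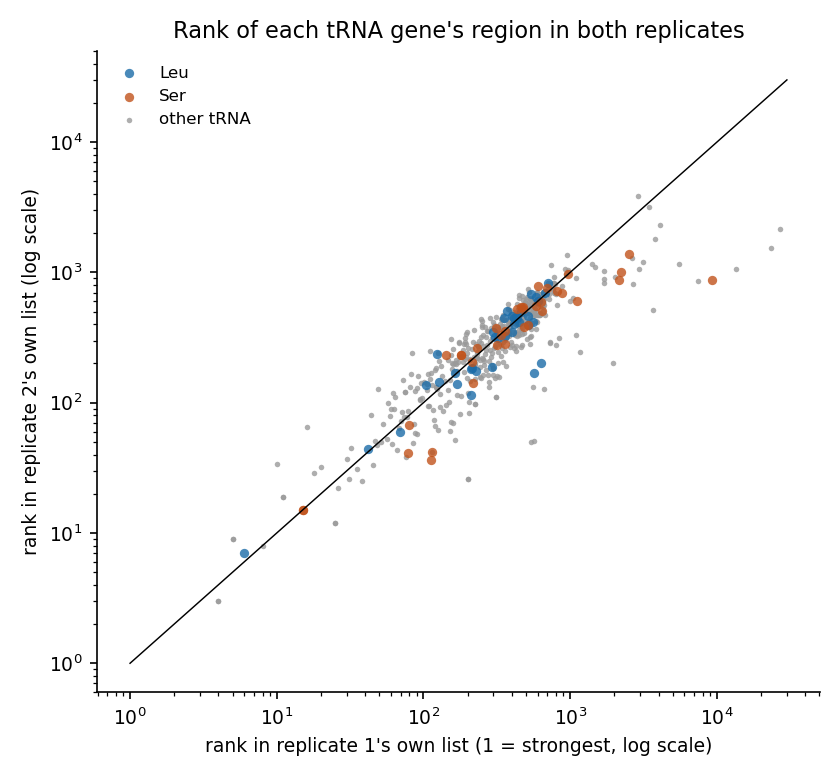
Rank of the strongest region over each tRNA gene in replicate 1's own list (x axis) and replicate 2's own list (y axis), both on log scales with 1 as the strongest, for Leu (blue), Ser (orange) and other tRNA genes (grey), and the line of equal ranks in black. Most members lie near the line, and among them F28F8.t1 lies farthest to its right, at rank 9224 in replicate 1 and 871 in replicate 2.

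The 3 members with a thresholded peak and no region in replicate 1's list were Ser-AGA genes next to other tRNA genes, F22F1.t2, F22F1.t4 and F42A10.t1. The first 2 belong to the longest run of members on 1 stretch, with F22F1.t8, where 3 identical Ser-AGA genes lie within 2732 bp of the X chromosome. Their signals were 512 at F22F1.t2, 159 at F22F1.t4 and 188 at F22F1.t8, each from a peak shared with a neighbouring tRNA gene. F22F1.t8 had rank 1113 in replicate 1 and 606 in replicate 2, and replicate 2 had regions at F22F1.t2 (rank 147) and F22F1.t4 (rank 562).

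The closest other tRNA classes lay within the members' range. The 1 gene for tRNA-Sec, K11H12.t1, whose tRNA also has a long variable arm and is charged by seryl-tRNA synthetase, had a signal of 105 (rank 752), with 35.3 in replicate 1 and 70.6 in replicate 2. That was below the Ser median of 310 and within the Ser range. The tRNA-Tyr genes had 16 of 19 occupied and a median of 269 (180 to 679).

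The listed protein-coding genes of tRNA charging, the selenocysteine pathway and the polymerase III machinery had no thresholded peak at their 5′ end. Of 15 listed genes, 14 were annotated under the symbols searched: the leucyl-tRNA synthetases lars-1 and lars-2, the seryl-tRNA synthetases sars-1 and sars-2, the selenocysteine pathway genes secs-1, pstk-1 and seld-1, and tftc-1, tftc-3, tftc-5, brf-1, tbp-1, rpc-1 and rpc-2 of the polymerase III machinery. A thresholded peak within 250 bp of the 5′ end was found in 0 of the 14, beside 1.80% of the 19971 nuclear protein-coding genes, and with 14 genes a share at that background would also give few or no genes. Relaxed regions of the pooled list met sars-1 (signal 13.9, rank 6067 of 20662) and tftc-3 (8.93, rank 18520).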

How the data were processed

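Peak lists in the narrowPeak format were used as the authors deposited them on build ce11. According to the submitters' file list, a relaxed list was made for each replicate against a control and 1 for both alignments pooled (20662 regions). The thresholded list was derived from them with the irreproducible discovery rate (IDR). The control library was not analysed here. Which aligner and peak caller were run is not given in the sources used here. The labels give a fragment size range of 150 to 350. Column 7 of the deposited lists is the authors' signal, and column 10 gives the summit offset.

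All peak ends fit within the chromosomes of WBcel235, and coordinates are 1-based. A gene took the signal and summit of the strongest peak that overlapped it by at least 1 bp, and neighbours could share a peak. The anticodon of every member was read from the anticodon loop in its sequence, among the anticodons for its annotated amino acid. Leaving out a replicate meant taking the 1320 strongest regions of the other replicate's list. Exact 95% intervals cover counting error only. The labels call the replicates biological.

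Named genes were those without a peak, the extremes overall and per anticodon, isolated genes with a summit outside, the longest run of members (gaps up to 2000 bp) and the 3 largest differences of rank. The members and lists were chosen with earlier results of these data known, and the A box pattern TNNCNNAG was added after the sequences were seen. The code was tested on simulated peaks. Python 3.11.15, NumPy 2.4.6, SciPy 1.17.1 and Matplotlib 3.10.9 were used. Lists on ce10 were not used.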

Additional observations from a re-analysis of the deposited data

How the results depend on the processing

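The count of occupied members (54 to 76) and of summits inside the gene (39 to 42) stayed within 1.5 times the reported counts in every alternative run; the lowest counts came with fewer genes, since 54 of 56 members with no other tRNA gene within 1000 bp were occupied. The log2 ratio of median signals, Leu and Ser over other tRNA genes, stayed negative: it was -0.088 to -0.055 without a replicate, -0.074 for the stronger 660 peaks, -0.18 with the summit within 100 bp of the gene, -0.20 with no other tRNA gene within 1000 bp, and -0.20 for peaks over a single tRNA gene, an alternative chosen after seeing the data. Without a replicate, on that list's own scale, the median signal was 110 to 241 at Leu genes and 112 to 226 at Ser genes, and the Ser median was 398 in the stronger 660 peaks (Leu 370), which leave out the weak ones. Without a replicate the median summit was at base 28 to 34, its distance from the B box -35.5 to -31 bases, and the difference of median summit position 0.5 to 6 bases. The cause of these shifts was not tested. No paired analysis was possible because there was 1 group. The unknown depth limits what the absence of a peak at 2 genes can show.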
